A study of Mus musculus with 5 samples.

Results

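The lung epithelial transcription factors described here are 10 genes: Nkx2-1, Sox2, Sox9, Foxa1, Foxa2, Gata6, Cebpa, Etv5, Id2 and Klf5. They were chosen by name, and each matched 1 of the 32285 genes in the count matrices. Single-cell RNA-seq with 3′ droplet chemistry was made from whole lungs of mouse embryos at E18.5 (embryonic day), shortly before birth, after digestion with collagenase and DNase and lysis of red blood cells. There were 2 libraries labelled Zswim8+/- (Het1 and Het2) and 3 labelled Zswim8-/- (KO1, KO2 and KO3), each from the lungs of 1 embryo, so the comparison group also carries a mutant allele, and no wild-type lung was analysed here. Xist and Y-linked transcripts marked KO1 and KO2 as female and the other libraries as male.

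ZSWIM8 is the substrate receptor of a Cullin ubiquitin ligase. When a microRNA pairs extensively with a trigger transcript, the ligase marks the Argonaute protein that carries it, and the microRNA is degraded. Lung epithelium forms from cells that express NKX2-1. SOX2 marks the proximal tree that becomes the conducting airways, with secretory and ciliated cells, and SOX9, ID2 and ETV5 mark the distal tips from which the alveoli arise. Near birth, distal cells form alveolar type 2 (AT2) cells, which make surfactant, and flat alveolar type 1 (AT1) cells, across which gas is exchanged. FOXA1, FOXA2 and GATA6 act with NKX2-1 on surfactant and airway secretory genes, CEBPA promotes AT2 maturation, and KLF5 is a zinc finger factor of lung epithelium.

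In GRCm38 coordinates with the GENCODE M21 annotation, Nkx2-1 lies at chr12:56531958-56536908, Foxa1 at chr12:57540628-57546916 and Id2 at chr12:25093799-25097140, all on the minus strand. Foxa2 (chr2:148042877-148046969) and Etv5 (chr16:22381309-22439719) are also on the minus strand. Sox9 (chr11:112782224-112787760), Cebpa (chr7:35119293-35121928), Klf5 (chr14:99298691-99315036) and Gata6 (chr18:11052064-11085635) are on the plus strand. Sox2 (chr3:34650405-34652461) lies on the plus strand within Sox2ot, a long noncoding gene of the same strand, so reads of the pair may have been divided between them. Genes on the opposite strand overlap Nkx2-1 (Gm26973), Cebpa (Gm45091) and Gata6 (1010001N08Rik), and whether strand was used in counting is not given in the sources used here.

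Between 3051 and 4634 cells were kept per library, with a median of 9703 to 12656 UMIs (counted molecules) per cell, and at most 7 barcodes were shared between a pair of libraries. Epithelial barcodes numbered 1101 and 770 in the Het libraries and 450, 428 and 524 in the KO libraries, and the epithelial sums held 576 and 420 against 251, 249 and 359 of them. Clusters with markers of 2 lineages, of low depth or led by blood genes were left out of these sums. Zswim8 itself was at 36.7 and 38.5 CPM (UMIs of the gene scaled to a common library total) in the Het libraries and at 38.2, 38.7 and 40.1 CPM in the KO libraries, over all cells (log2 fold change 0.05, SE 0.058, adjusted p = 0.60, edgeR quasi-likelihood test). These are tags of the 3′ end, and the labels do not say which part of the gene is missing, so this does not check the genotypes: every direction given for KO over Het rests on the labels.

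Epithelial cells were grouped by clusters made without the 10 genes. AT2-like cells numbered 210 and 125 in the Het libraries and 37, 34 and 86 in the KO libraries. AT1-like cells numbered 174 and 160 against 53, 42 and 81, secretory-like cells 54 and 35 against 39, 25 and 23, and ciliated-like cells 63 and 29 against 24, 30 and 30. The ciliated-like class also held secretory markers, summing to 16484 to 46836 CPM, against 38040.5 to 95093 CPM in secretory-like cells. Its cycling markers summed to 557 to 740 CPM, and a cluster within it was led by Deup1. Levels given for this class may therefore not be those of mature ciliated cells alone. A further cluster of 55 and 50 against 63, 62 and 87 cells was led by Fbn2, Areg and Egfl6, with the surfactant protease Napsa among its leading genes, and it was given no cell type name. It is called Fbn2-led here. Smaller groups were a Ccdc39-led cluster, which carries genes of cells building cilia, cycling cells, which made up 0.174% and 1.19% of the epithelial cells in the Het libraries and 5.58%, 15.3% and 10.9% in the KO libraries, and 8 neuroendocrine-like cells.

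**Figure D1:**
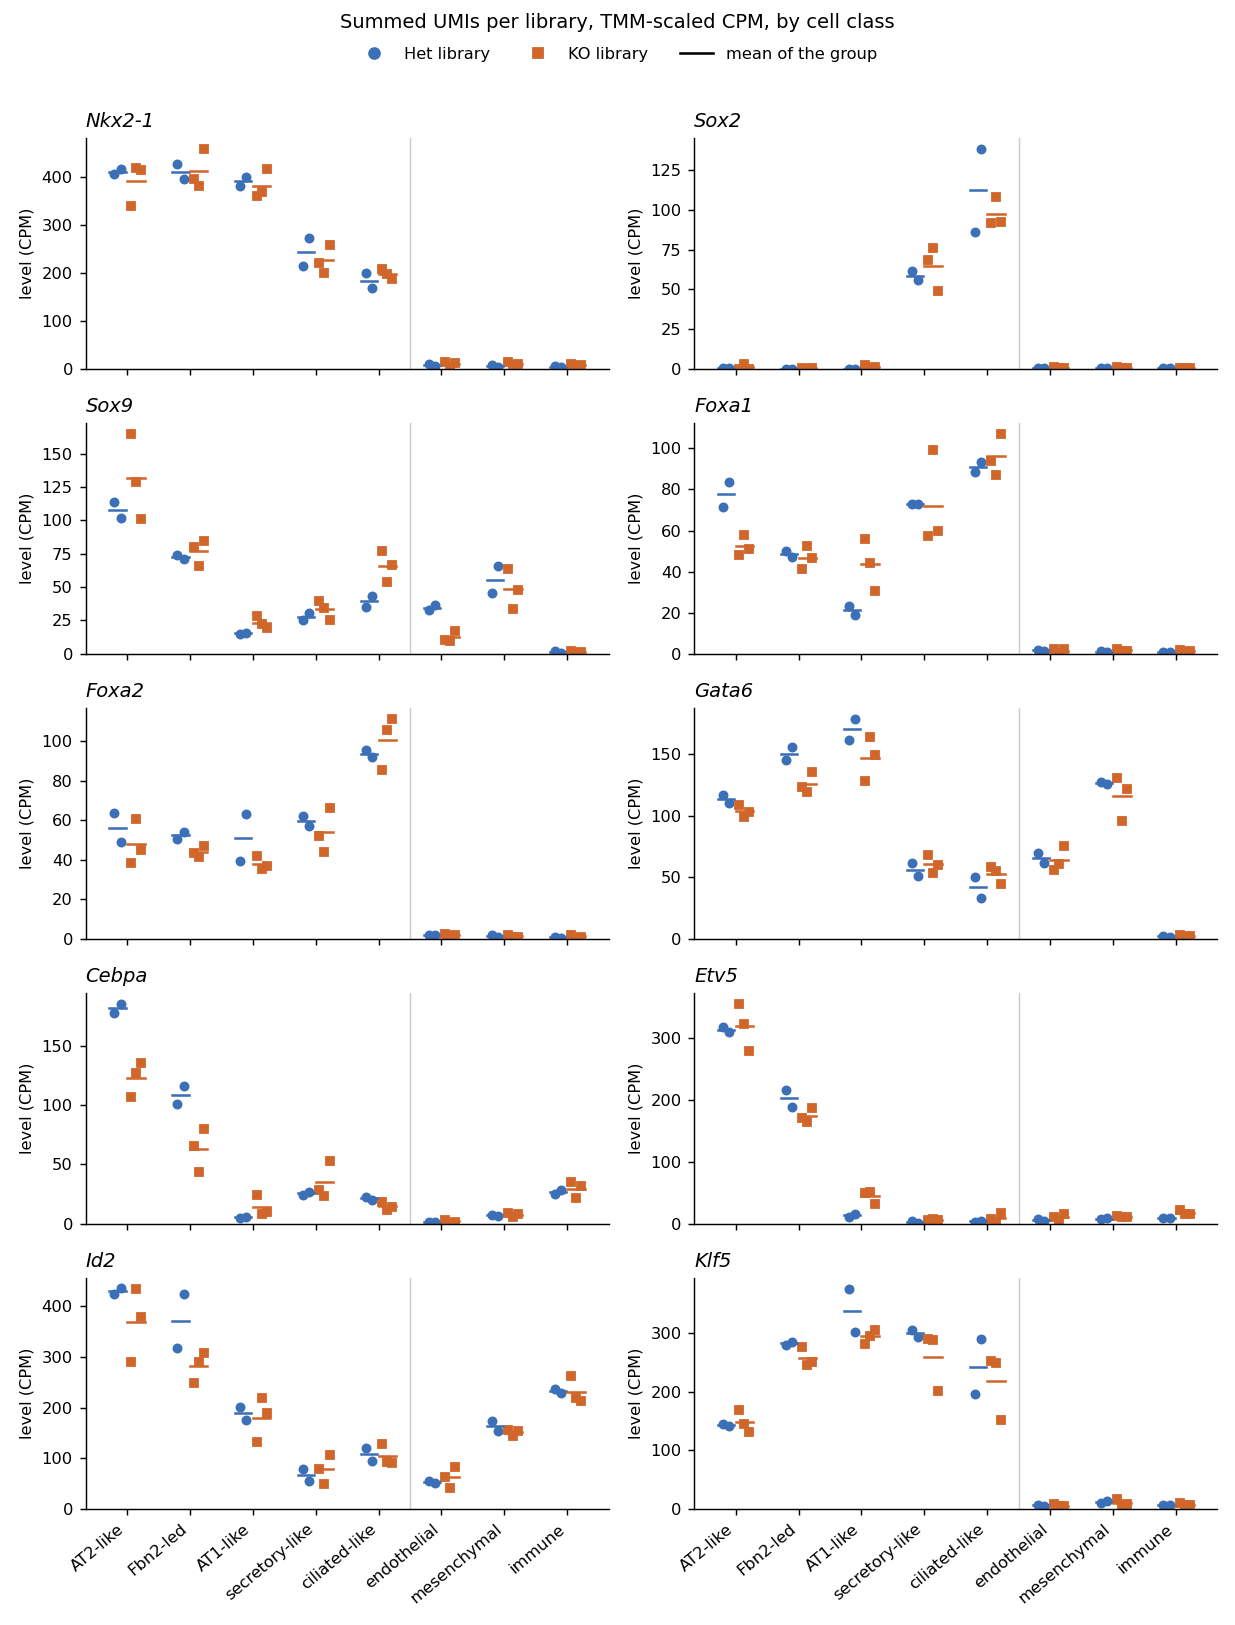
Level of each factor in every library (TMM-scaled CPM of the summed UMIs, vertical axis) by cell class (horizontal axis); circles are the 2 Het libraries, squares the 3 KO libraries, and lines the group means. Sox2 is near 0 outside the secretory-like and ciliated-like classes, while Etv5 is highest in AT2-like cells, at 279 to 354 CPM.

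Across the 5 epithelial classes the factors fell into proximal, distal and shared patterns. Levels are CPM of the UMIs summed per library and class, scaled by TMM (trimmed mean of M values) within each class, and given as mean ± SD over the 5 libraries. Differences between classes are described by whether the ranges of the libraries overlap, with no test. Each range takes in both genotypes, so classes with overlapping ranges could still differ in the same direction within every library. Fewer cells holding a transcript and less of it per cell cannot be told apart in such sums.

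Sox2, the proximal marker, was found in the airway classes and in at most 2 UMIs per library in the distal ones. Its level was 103 ± 21.3 CPM (n = 5) in ciliated-like cells and 62.1 ± 10.6 CPM in secretory-like cells. The ranges of these classes, 86.1 to 139 and 48.9 to 76.1 CPM, did not overlap. It reached at most 2.83 CPM in any library of AT2-like cells, 2.00 CPM in AT1-like cells and 0.445 CPM in Fbn2-led cells. Shares after thinning to 3000 UMIs are expected values, computed from each cell's counts without a random draw, in cells with at least 3000 UMIs. By this measure, 20.9% to 27.0% of ciliated-like cells and 11.3% to 23.1% of secretory-like cells held a Sox2 UMI. In immune cells, which should lack it, the share was 0.0434% to 0.236%.

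Etv5, an ETS factor that responds to fibroblast growth factor (FGF) signalling, had the opposite distribution. It was at 316 ± 27.2 CPM in AT2-like cells, 185 ± 19.8 CPM in Fbn2-led cells and 31.9 ± 18.6 CPM in AT1-like cells, and the ranges of these 3 classes did not overlap. In ciliated-like and secretory-like cells it was at 7.04 ± 5.75 and 4.90 ± 2.12 CPM, and endothelial cells, as a class outside the epithelium, had 8.52 ± 4.08 CPM.

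Id2, an inhibitor of basic helix-loop-helix factors, followed a similar order. Its level was 393 ± 62.2 CPM in AT2-like cells and 318 ± 65.4 CPM in Fbn2-led cells, with overlapping ranges. The AT2-like value was the higher of these within every library. AT1-like cells had 183 ± 32.7 CPM, below both, and ciliated-like and secretory-like cells had 105 ± 18.0 and 73.5 ± 22.8 CPM. Id2 was not restricted to epithelium: immune cells had 232 ± 19.5 CPM, mesenchymal cells 156 ± 11.1 CPM and endothelial cells 58.5 ± 15.6 CPM.

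Cebpa, the CCAAT-enhancer binding protein of AT2 cells, was at 147 ± 34.0 CPM in AT2-like cells and 81.3 ± 28.6 CPM in Fbn2-led cells. These ranges overlapped, as did those of Fbn2-led and secretory-like cells (31.3 ± 12.45 CPM). Within every library, however, AT2-like cells were above Fbn2-led cells and these above secretory-like cells. Ciliated-like cells had 17.3 ± 4.498 CPM and AT1-like cells 10.5 ± 7.82 CPM. Immune cells held 28.4 ± 5.27 CPM.

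Sox9, the distal counterpart of Sox2, was also highest in AT2-like cells, at 122 ± 26.4 CPM with a range of 101 to 165 CPM. Fbn2-led cells followed with 75.1 ± 7.30 CPM, below that range. Ciliated-like cells had 55.1 ± 16.7 CPM, secretory-like cells 31.0 ± 6.10 CPM and AT1-like cells 19.97 ± 5.40 CPM, and each of these neighbours overlapped. Within every library these classes kept this order. Mesenchymal cells held 51.2 ± 13.3 CPM. Sox9 was thus found in airway classes as well as distal classes, whereas Sox2 was at or near 0 in the distal classes.

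Nkx2-1, the founding factor of the lung lineage, was present in all 5 classes. Fbn2-led, AT2-like and AT1-like cells had 412 ± 31.4, 399 ± 33.4 and 386 ± 23.2 CPM with overlapping ranges. Secretory-like cells had 233 ± 30.8 CPM and ciliated-like cells 192 ± 15.4 CPM, both below the lowest distal library, at 340.1 CPM. In thinned AT2-like cells, 59.6% to 74.4% held an Nkx2-1 UMI, against 0.999% to 2.91% of immune cells.

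Gata6, a zinc finger factor, was at 156 ± 18.9 CPM in AT1-like, 136 ± 15.3 CPM in Fbn2-led and 108 ± 6.94 CPM in AT2-like cells. Of these, AT1-like and Fbn2-led cells overlapped and AT2-like cells lay below both. AT1-like cells were above Fbn2-led cells within every library. Secretory-like and ciliated-like cells had 58.6 ± 6.97 and 48.2 ± 9.98 CPM. Mesenchymal cells, at 120.2 ± 14.1 CPM, held a level between those of AT2-like and Fbn2-led cells, and endothelial cells held 64.7 ± 7.64 CPM.

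Klf5 was highest in AT1-like cells, at 313 ± 36.6 CPM, and lowest in AT2-like cells, at 147 ± 13.7 CPM. Secretory-like, Fbn2-led and ciliated-like cells lay between, at 276 ± 42.0, 268 ± 18.3 and 228 ± 54.6 CPM. Every neighbour in this order overlapped, but AT2-like cells, with at most 169 CPM, stayed below the lowest AT1-like library, at 282 CPM.

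The forkhead factors Foxa1 and Foxa2 were highest in ciliated-like cells, at 94.0 ± 7.89 and 97.9 ± 10.4 CPM. For Foxa2, this class stood above the other 4, which ranged from 43.2 ± 11.4 CPM in AT1-like to 56.3 ± 8.71 CPM in secretory-like cells and overlapped. For Foxa1, levels fell through secretory-like (72.5 ± 16.6 CPM), AT2-like (62.5 ± 14.9 CPM) and Fbn2-led cells (47.4 ± 4.14 CPM) to AT1-like cells (34.6 ± 15.4 CPM). All neighbours overlapped, although AT2-like cells were above Fbn2-led cells within every library. Outside the epithelium neither gene exceeded 2.31 CPM in any library of endothelial, mesenchymal or immune cells.

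Which other genes followed each factor was read from 25 sums (5 classes in 5 libraries) over 8249 genes with a mean of at least 10 CPM, on a log2 scale with 1 CPM added. Sums from a library share its depth and its free RNA, so these correlations are descriptive. Etv5 was most like Sftpc, which encodes surfactant protein C (r = 0.984), and Dlk1 (r = 0.984). Cebpa was most like the chemokine gene Cxcl15 (r = 0.969) and the surfactant protein gene Sftpb (r = 0.964). Sox2 was most like the water channel gene Aqp4 (r = 0.974) and Crim1 (r = 0.970). Gata6 was closest to Cux1 (r = 0.964) and the laminin gene Lama3 (r = 0.961), Id2 to Bspry (r = 0.954) and Prnp (r = 0.943), and Nkx2-1 to the cathepsin gene Ctsh (r = 0.942) and Nek6 (r = 0.939). Sox9 was closest to Gemin8 (r = 0.931) and Jmjd1c (r = 0.926), Foxa1 to Kbtbd11 (r = 0.928) and Mast4 (r = 0.899), Foxa2 to Tchp (r = 0.921) and Cpne3 (r = 0.919), and Klf5 to the tissue factor gene F3 (r = 0.902) and Evpl (r = 0.885).

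Among the factors themselves, Nkx2-1 and Gata6 varied together over the 25 sums (r = 0.919), as did Etv5 and Id2 (r = 0.915) and Sox9 and Cebpa (r = 0.813). Sox2 ran opposite to Nkx2-1 (r = -0.952) and to Gata6 (r = -0.942). Foxa1 and Foxa2, paralogous forkhead genes, had r = 0.582.

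Detection in the same cell was computed as an expected share of 1787 epithelial cells thinned to 3000 UMIs, and is not a count of cells. Sox2 and Sox9 were found together in 0.314% and 0.316% of cells in the Het libraries and 1.14%, 0.794% and 0.395% in the KO libraries. If they were unrelated, the product of their separate shares would give 0.536%, 0.436%, 1.04%, 1.08% and 0.542%, so joint detection was below that product in 4 libraries and above it in KO1. The KO1 values are expected shares of only 221 cells. Sox2 and Etv5 met in 0.0365% to 0.261% of cells, below the products of 0.861% to 1.87% in every library. Cebpa and Etv5 met in 4.27% to 9.18% of cells, above the products of 2.84% to 5.83% in every library. Without thinning the reading for Sox2 and Sox9 turned: they met in 8.33% to 18.1% of cells, above the products of 5.56% to 14.5% in every library. Sox2 with Etv5 stayed below its product and Cebpa with Etv5 above it in every library without thinning.

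The matches of the 10 genes to the microRNAs best known as ZSWIM8 substrates were read from the reference alone, because this assay counts no microRNA. The seeds (bases 2 to 8, in capitals) are those of RefSeq miRNA entries on GRCm38.p6.
mmu-miR-322-5p: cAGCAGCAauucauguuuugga
mmu-miR-503-5p: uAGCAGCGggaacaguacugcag
mmu-miR-7a-5p: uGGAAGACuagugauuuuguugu
A site was counted where the longest annotated 3′ UTR of a gene held the complement of the seed. For miR-322-5p (TGCTGCT), 20.32% of 20996 UTRs and 0 of the 10 factors held a site. For miR-503-5p (CGCTGCT), 3.94% of UTRs and 1 factor did, and for miR-7a-5p (GTCTTCC), 11.95% of UTRs and 1 factor did. These are the sites, with the match in capitals.
Nkx2-1: caccattcgccCGCTGCTccacgcgcttc
Klf5: tccatccttaaGTCTTCCatttcattttc
The Nkx2-1 match is at chr12:56532955-56532961 on the minus strand and begins at base 74 of a UTR of 1077 bases. The Klf5 match is at chr14:99304082-99304088 on the plus strand and begins at base 597 of 1841. A match is a description of letters and not a site shown to act. In the main edgeR fits, Nkx2-1 and Klf5 passed the test of KO against Het in none of the 10 cell sets tested. With DESeq2, Nkx2-1 passed in immune cells (log2 fold change 0.92, adjusted p = 0.0189).

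The first comparison of genotypes took all epithelial cells together. Sox9 was the only 1 of the 10 factors to pass the test, and it was higher in the KO libraries. It stood at 54.8 and 52.6 CPM in the Het libraries and at 78.4, 67.3 and 84.1 CPM in the KO libraries (log2 fold change 0.51, SE 0.12, adjusted p = 0.0228, edgeR quasi-likelihood test with Benjamini-Hochberg adjustment over 14198 genes). All 3 KO values lay above both Het values. Of all genes tested in this comparison 9.59% passed at an adjusted p under 0.05, and 3.87% passed with a higher level in the KO libraries, so 1 of 10 is near the background.

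The excess of Sox9 was seen together with the composition of the epithelial sums. Cycling cells gave 0.306% and 1.15% of the epithelial UMIs in the Het libraries and 10.4%, 25.2% and 17.0% in the KO libraries. Sox9 in cycling cells was at 126, 104 and 143 CPM in the KO libraries (unscaled CPM), where 14, 38 and 39 cells were counted, and it was at 121 CPM in the 5 cells of Het2 and not detected in the single cell of Het1. All 10 cycling markers fixed for the comparison were higher in every KO library, and their sum was 264 to 281 CPM in the Het libraries and 451 to 682 CPM in the KO libraries. Without the cycling cells, Sox9 was at 54.1 and 50.4 CPM against 70.9, 59.8 and 72.7 CPM, and the call was lost (log2 fold change 0.33, adjusted p = 0.258).

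**Figure D2:**
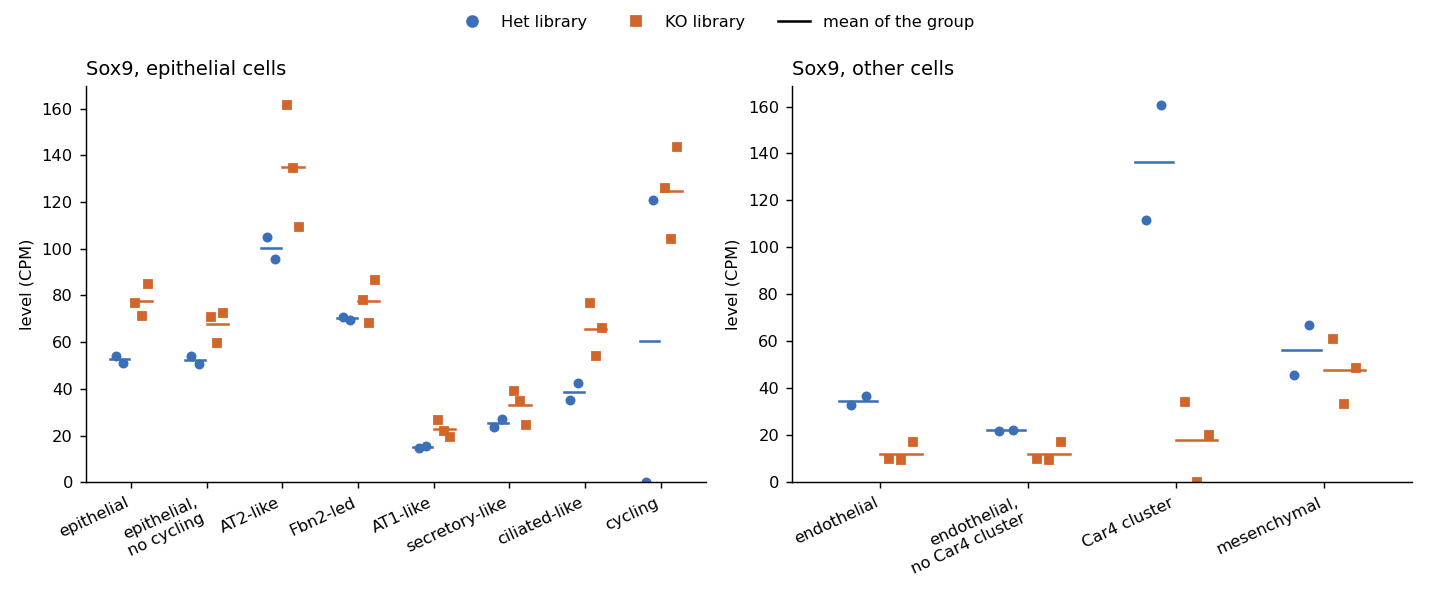
Sox9 level (CPM of the summed UMIs, vertical axis) in epithelial and other cell sets (horizontal axis), 1 symbol per library; circles are Het, squares KO, and lines are group means. The 3 KO libraries lie above both Het libraries in all epithelial cells, at 67.3 to 84.1 CPM after scaling, and below them in endothelial cells.

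Within single classes Sox9 did not pass. AT2-like cells had 114 and 102 CPM against 165, 129 and 101 CPM (log2 fold change 0.20, adjusted p = 0.516), and the groups overlapped. Fbn2-led cells had 74.0 and 71.1 CPM against 80.0, 66.0 and 84.6 CPM. In ciliated-like cells the groups did not overlap, with 35.3 and 43.6 CPM against 76.7, 53.6 and 66.5 CPM, as for 23.4% of all genes tested there, and the adjusted p was 0.195 (log2 fold change 0.71, SE 0.19). Leaving out Het1, Het2 or KO3 ended the call over all epithelial cells (adjusted p = 0.116, 0.137 and 0.0595), and so did a rule that removed mixed cells by their own markers (log2 fold change 0.19, adjusted p = 0.591).

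The other 9 factors did not pass over all epithelial cells. Sox2 was at 38.0 and 45.6 CPM against 29.1, 32.8 and 15.7 CPM (log2 fold change -0.70, SE 0.30, adjusted p = 0.204), with no overlap between the groups. With embryo sex added to the model, the genotype term compares KO3 alone with the Het libraries, because both female libraries are KO. The Sox2 log2 fold change was then -1.41. Without the filter on low counts, Sox2 passed (-0.70, adjusted p = 0.00167). Etv5 was at 104 and 98.2 CPM against 120.4, 116 and 162 CPM (log2 fold change 0.39, SE 0.15, adjusted p = 0.116), also without overlap. It passed without the low-count filter (adjusted p = 0.0111) and over all epithelial barcodes (adjusted p = 0.0128). With sex as a term, again KO3 alone against the Het libraries, its log2 fold change was 0.68. Groups did not overlap for 44.4% of all genes tested here. Foxa1 (65.9 and 65.9 CPM against 57.2, 62.2 and 57.6 CPM) and Foxa2 (68.0 and 68.9 CPM against 57.1, 61.8 and 57.5 CPM) had adjusted p of 0.364 and 0.1998. Cebpa was at 65.7 and 66.4 CPM against 47.4, 34.5 and 65.0 CPM (adjusted p = 0.306), with KO3 close to the Het libraries. It passed without KO3 (log2 fold change -0.71, adjusted p = 0.0184) and without the low-count filter (-0.43, adjusted p = 0.0108). For Nkx2-1, Gata6, Id2 and Klf5 the log2 fold changes ran from -0.03 to 0.20 with adjusted p between 0.340 and 0.920.

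Secretory-like and ciliated-like cells held most of the epithelial Sox2 UMIs, and the rest lay mainly in groups outside the compared classes. Of those groups, the Ccdc39-led cluster gave 8.23% and 10.5% of the epithelial UMIs in the Het libraries. In the KO libraries it gave 13.3%, 11.5% and 7.30%, with overlap. The 2 airway classes gave these shares of the epithelial UMIs. Secretory-like cells gave 7.79% and 6.49% in the Het libraries and 8.66%, 3.78% and 4.24% in the KO libraries, with overlap. Ciliated-like cells gave 32.4% and 25.7% against 16.1%, 21.0% and 12.48%, without overlap, although their shares of epithelial cells, 10.9% and 6.91% against 9.56%, 12.1% and 8.36%, did overlap. Within secretory-like cells Sox2 was at 61.3 and 55.6 CPM against 68.4, 76.1 and 48.9 CPM, and within ciliated-like cells at 86.1 and 139 CPM against 92.04, 108 and 92.4 CPM. The groups overlapped in both classes. The part of class shares in the epithelial value of Sox2 was not tested.

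**Figure D3:**
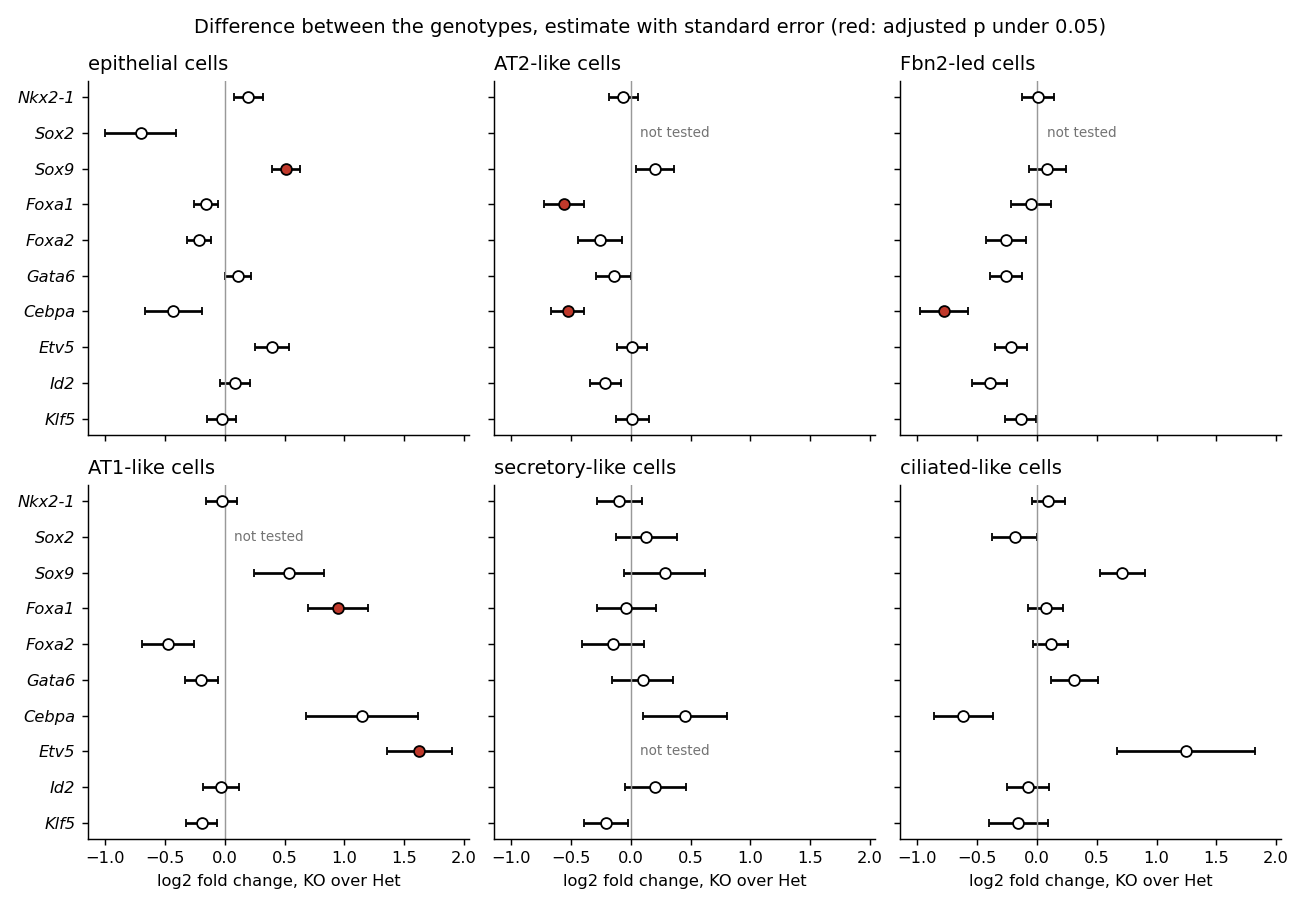
Log2 fold change of KO over Het with its standard error (horizontal axis) for each factor, in all epithelial cells and in the 5 classes; red marks an adjusted p under 0.05. Calls are Sox9 in all epithelial cells, Cebpa and Foxa1 in AT2-like cells, Etv5 and Foxa1 in AT1-like cells, and Cebpa in Fbn2-led cells.

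In AT2-like cells Cebpa and Foxa1 were lower in the KO libraries, and the other 7 factors tested did not pass. Cebpa was at 178 and 186 CPM in the Het libraries and at 107, 127 and 136 CPM in the KO libraries (log2 fold change -0.53, SE 0.14, adjusted p = 0.0117). Foxa1 was at 71.6 and 83.5 CPM against 48.3, 57.9 and 50.9 CPM (log2 fold change -0.56, SE 0.17, adjusted p = 0.0297). Neither gene's groups overlapped, as for 35% of all genes tested here. In AT2-like cells 8.23% of all genes tested passed, and 4.73% passed with a lower level in the KO libraries, against 2 of the 9 factors. The distal markers Etv5 (316 and 309 CPM against 354, 322 and 279 CPM) and Id2 (424 and 436 CPM against 289.8, 435 and 379.9 CPM) had adjusted p of 0.982 and 0.369. Nkx2-1 was at 406 and 417 CPM against 340.1, 418 and 415 CPM (adjusted p = 0.823). Foxa2, Gata6 and Klf5 had log2 fold changes of -0.26, -0.14 and 0.01 and did not pass.

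Different clusters held most AT2-like cells in the groups. A cluster led by Retnla, Lyz1 and S100g gave 87.8% and 85.9% of the AT2-like UMIs in the Het libraries and 31.4%, 23.6% and 38.2% in the KO libraries. The rest came from a cluster led by Col18a1, Napsa and Sftpa1. Within the Retnla-led cluster Cebpa was at 165 and 187 CPM in the Het libraries and 182, 219 and 169 CPM in the KO libraries (unscaled CPM), and these groups overlapped. In the Col18a1-led cluster it was at 168 and 95.6 CPM against 69.0, 107 and 132 CPM, again with overlap. Foxa1 in the Retnla-led cluster was at 65.2 and 85.3 CPM against 62.8, 43.8 and 55.3 CPM, on 9 to 39 KO cells. The value of KO1 rests on 10 UMIs, and no test was made within this cluster. In the Col18a1-led cluster it was at 73.7 and 35.4 CPM against 40.2, 65.9 and 54.6 CPM, with overlap.

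**Figure D4:**
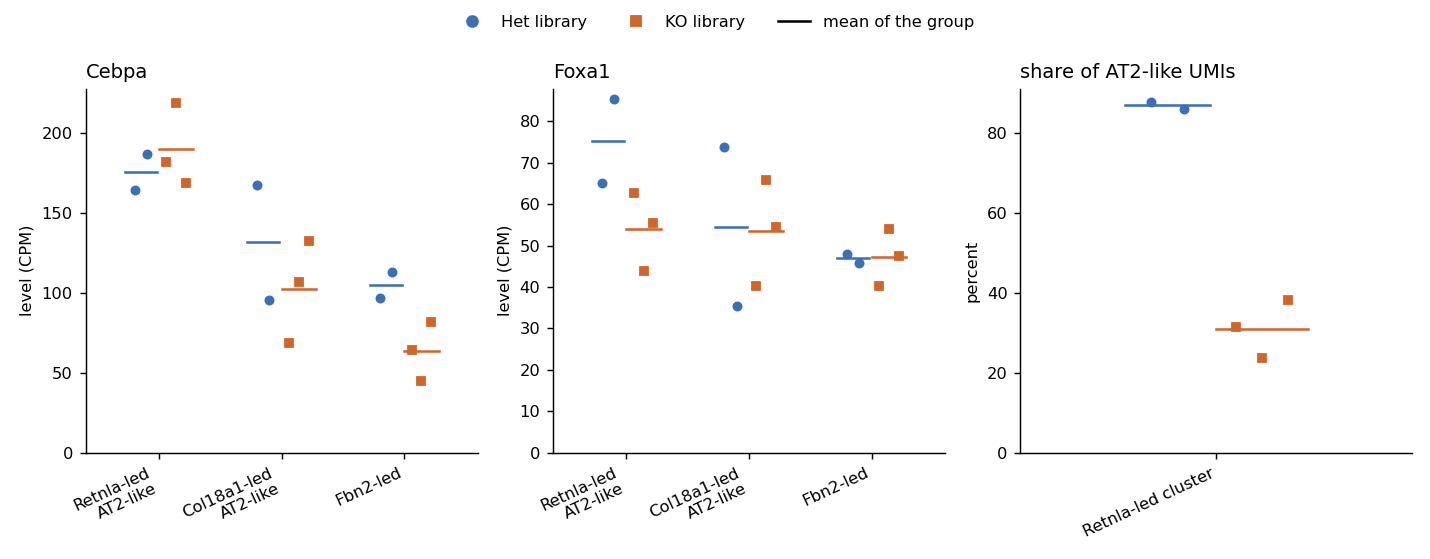
Cebpa and Foxa1 levels (CPM of the summed UMIs, vertical axes) in the Retnla-led and Col18a1-led AT2-like clusters and the Fbn2-led cluster (horizontal axis), and the percent of AT2-like UMIs that the Retnla-led cluster gave; circles are Het libraries and squares KO libraries. The Retnla-led share is 85.9% or more in the Het libraries and 38.2% or less in the KO libraries, while Cebpa within that cluster overlaps.

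Other values moved with these calls. The summed level of 12 AT2 markers in AT2-like cells was 155721 and 165475 CPM in the Het libraries and 100332 to 113707 CPM in the KO libraries, and all 12 were lower in every KO library. Markers of AT1 cells summed to 999 to 1159 CPM against 1285 to 1701 CPM, with 7 of 14 higher in every KO library. Those of cycling cells summed to 16.5 to 18.9 CPM against 72.6 to 104 CPM. Immune markers summed to 3277 to 5573 CPM against 262 to 1123 CPM, and 1 of their 10 genes, Lyz2, is also on the AT2 list. The part of these in the 2 calls was not tested.

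Both AT2-like calls depended on the processing. Cebpa kept its call in 7 of 15 alternatives and Foxa1 in 4 of 15, with the same direction in all of them. Cebpa lost it without Het1 (adjusted p = 0.0984) or Het2 (0.135), and Foxa1 without Het1 (0.0835), Het2 (0.330), KO2 (0.0587) or KO3 (0.186). Both lost it with DESeq2, a different count model (adjusted p = 0.112 and 0.355), and with library size alone (0.114 and 0.149). Both also lost it with sex as a term, which leaves KO3 alone as KO (log2 fold change -0.42 and -0.59). Cebpa moved to a log2 fold change of -0.30 with doublets kept (adjusted p = 0.195), -0.31 at a clustering resolution of 2 (0.221) and -0.27 with mixed cells left out (0.451). Foxa1 moved to -0.45 (0.0808), -0.35 (0.254) and -0.50 (0.171) under the same settings, and with the replicate block its adjusted p was 0.178.

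In Fbn2-led cells Cebpa was also lower in the KO libraries, at 101 and 116 CPM against 65.8, 43.5 and 79.8 CPM (log2 fold change -0.78, SE 0.20, adjusted p = 0.0419). The groups did not overlap, as for 36% of all genes tested there. It was the single call among 9 factors tested, where 4.16% of all genes passed and 2.69% passed with a lower level in the KO libraries. Id2 was at 318 and 425 CPM against 249, 289 and 308 CPM (log2 fold change -0.40, adjusted p = 0.143), and its groups did not overlap either. Nkx2-1 had 426 and 395 CPM against 397, 380.4 and 459 CPM (adjusted p = 0.990). The 12 AT2 markers summed to 80073 to 87196 CPM in the Het libraries and 41285 to 61516 CPM in the KO libraries, with 9 of 12 lower in every KO library. The 10 immune markers, which include Lyz2 of the AT2 list, summed to 1804 to 2097 CPM against 182 to 507 CPM. Of them 4 were lower in every KO library and 1, Csf1r, was higher. The 8 red-cell markers summed to 6916 to 8782 CPM against 1370 to 2299 CPM, and the 14 AT1 markers to 8270 to 9379 CPM against 6062 to 6689 CPM. The part of any of these in the Cebpa value was not tested.

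Of 14 alternatives, 5 kept the Cebpa call in Fbn2-led cells. It was lost without Het1 (adjusted p = 0.155), Het2 (0.367), KO1 (0.311) or KO2 (0.0871). With doublets kept the log2 fold change was -0.03 (adjusted p = 0.981), and with sex as a term, which leaves KO3 alone as KO, it was -0.45. At a clustering resolution of 0.5 it was -0.77 (0.0860), and with mixed cells left out -0.85 (0.0888), where Id2 passed instead (-0.57, 0.00428). At a resolution of 2 the direction reversed (log2 fold change 0.90, adjusted p = 0.341).

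In AT1-like cells the calls ran the other way: Etv5 and Foxa1 were higher in the KO libraries. Etv5, which is low in this class, was at 11.3 and 15.4 CPM in the Het libraries and at 50.1, 50.7 and 32.2 CPM in the KO libraries (log2 fold change 1.62, SE 0.27, adjusted p = 0.000219). These levels rest on 19 and 31 UMIs against 25, 39 and 43. Foxa1 was at 23.2 and 18.9 CPM against 56.1, 44.2 and 30.7 CPM (log2 fold change 0.95, SE 0.25, adjusted p = 0.0229). No KO library reached down to a Het library for either gene. Of all genes tested in AT1-like cells 4.04% passed, and 1.88% passed with a higher level in the KO libraries, against 2 of the 9 factors.

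Cebpa in AT1-like cells was at 4.76 and 5.96 CPM against 24.0, 7.79 and 9.73 CPM (log2 fold change 1.15, SE 0.47, adjusted p = 0.195), on 6 to 13 UMIs a library, and Sox9 at 14.9 and 15.4 CPM against 28.04, 22.1 and 19.5 CPM (adjusted p = 0.375). Both were without overlap, as were 31.7% of all genes in this class. The factors with the highest AT1-like levels among the classes did not pass: Klf5 was at 376 and 302 CPM against 282, 296 and 306 CPM (adjusted p = 0.527), and Gata6 at 162 and 179 CPM against 128, 164 and 149.6 CPM (adjusted p = 0.532). Nkx2-1 was at 382 and 400.2 CPM against 361, 369 and 418 CPM (adjusted p = 0.962). Foxa2, unlike Foxa1, was at 39.3 and 63.1 CPM against 42.1, 35.1 and 36.7 CPM (log2 fold change -0.47, adjusted p = 0.267). Id2 had a log2 fold change of -0.03.

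The AT1-like class also held 2 clusters in unlike proportions. A cluster led by Gm20186, Hbegf and Gm12840 gave 61.0% and 72.3% of the AT1-like UMIs in the Het libraries and 91.3%, 91.1% and 84.0% in the KO libraries, and the other was led by Rtkn2, Msln and Col4a3. In the Hbegf-led cluster alone both calls held, for Etv5 with a log2 fold change of 1.41 (adjusted p = 0.00129) and for Foxa1 with 1.05 (adjusted p = 0.0265). In the Rtkn2-led cluster, with 8, 8 and 30 KO cells, Foxa1 was at 20.8 and 22 CPM against 22, 28.8 and 18.8 CPM, and the groups overlapped. Etv5 was there at 7.44 and 5.49 CPM against 22, 43.2 and 9.40 CPM, on few UMIs.

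**Figure D5:**
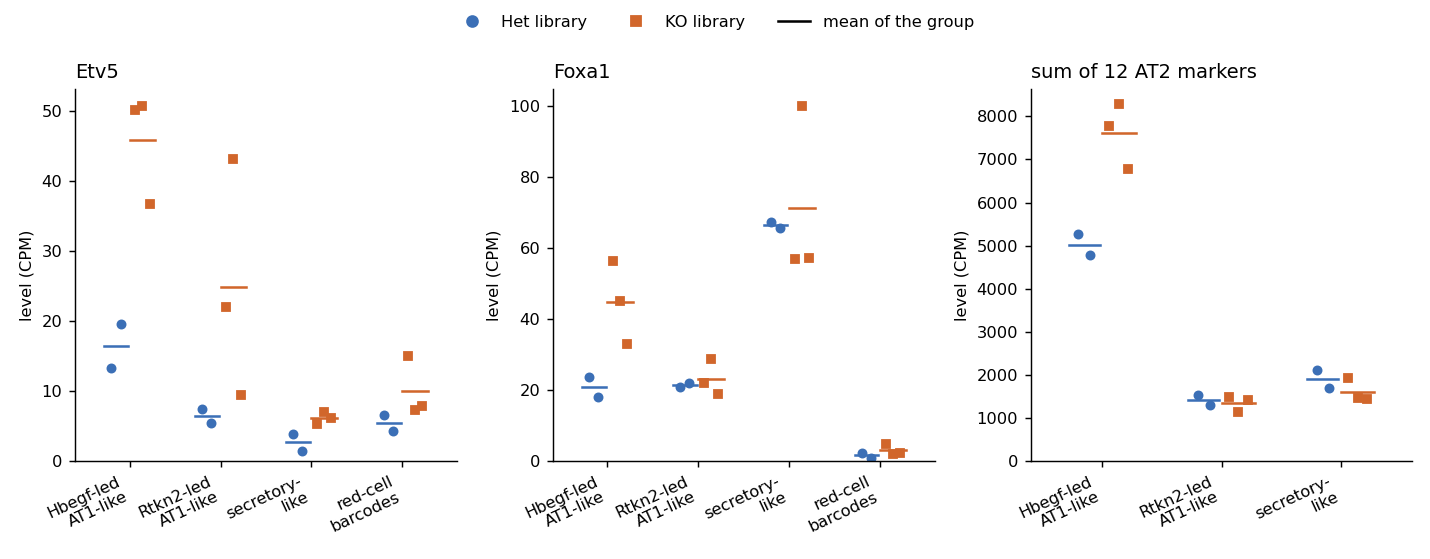
Etv5, Foxa1 and the sum of 12 AT2 markers (CPM, vertical axes) in the AT1-like clusters, secretory-like cells and, for the factors, red-cell barcodes (horizontal axes); circles are Het libraries and squares KO libraries. In the Hbegf-led cluster all 3 quantities are higher in every KO library, and the marker sum is 4775 to 5273 CPM in Het and 6768 to 8285 CPM in KO.

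AT2 markers were higher beside Etv5 and Foxa1 in this class. The 12 of them summed to 3816 to 3818 CPM in the Het libraries and to 7240, 7648 and 5912 CPM in the KO libraries, and 7 of 12 were higher in every KO library: Sftpc, Sftpb, Lamp3, Slc34a2, Napsa, Cxcl15 and Dram1. AT1 markers summed to 19144 and 19716 CPM against 11959 to 14375 CPM, with 12 of 14 lower in every KO library. In the Rtkn2-led cluster the AT2 sum overlapped, at 1312 to 1540 CPM against 1138 to 1496 CPM, and in secretory-like cells it was 1693 to 2103 CPM against 1433 to 1923 CPM. Red-cell barcodes, a measure of free RNA, held Etv5 at 6.58 and 4.36 CPM against 14.98, 7.33 and 7.85 CPM and Foxa1 at 2.29 and 0.995 CPM against 4.87, 1.98 and 2.35 CPM. Haemoglobin UMIs, over 50% of each such barcode, were counted in the total, so these values understate free RNA beside other cells. After thinning to 3000 UMIs, 3.84% and 3.70% of AT1-like cells held an Etv5 UMI in the Het libraries and 11.4%, 11.97% and 5.24% in the KO libraries, against 1.47% to 3.36% of endothelial cells. The part of AT2 transcripts or free RNA in the 2 calls was not tested.

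Over the 12 alternatives that gave an adjusted p in AT1-like cells, the Etv5 log2 fold change ran from 1.03 to 1.90. Those without a Het library, and the one with sex as a term, leave 1 library in a group. In all the others, including each KO library left out, Etv5 kept its call. Foxa1 kept it in 5 of 12 and lost it without Het1 (adjusted p = 0.0835), Het2 (0.258), KO1 (0.0935) or KO2 (0.0755). With sex as a term, which leaves KO3 alone as KO, the call was also lost, and the Foxa1 log2 fold change was 0.55. At a clustering resolution of 0.5 it was 0.62 (adjusted p = 0.282), and with mixed cells left out it was 0.78 (0.150). DESeq2 gave neither gene an adjusted p in this class. Doublets kept, a stricter cell filter, a resolution of 2 and the factors among the clustering genes each left a library under 20 AT1-like cells. These settings were not run, so the calls were not tried under them. The class was redrawn only by a resolution of 0.5, mixed cells left out and the Hbegf-led cluster alone.

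Among the 7 factors with a RefSeq promoter entry, a forkhead motif was found in a window of Etv5 and in a window of Foxa1. Some factors have more than 1 RefSeq start, so 10 windows were searched. The 250 bases before each RefSeq start were searched on both strands for TGTTTAC or its complement GTAAACA, which 3.17% of 32841 promoters hold. The windows follow (GRCm38.p6), without bases that GENCODE places in an exon, and with the motif in capitals.
Etv5: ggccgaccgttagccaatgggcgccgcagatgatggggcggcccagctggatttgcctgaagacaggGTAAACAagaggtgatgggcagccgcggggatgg
Foxa1: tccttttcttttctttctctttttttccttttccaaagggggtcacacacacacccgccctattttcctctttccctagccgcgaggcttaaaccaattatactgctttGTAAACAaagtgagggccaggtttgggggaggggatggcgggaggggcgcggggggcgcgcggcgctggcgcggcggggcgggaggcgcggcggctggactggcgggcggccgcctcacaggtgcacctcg
The Etv5 stretch is chr16:22439720-22439820 and the Foxa1 stretch chr12:57546122-57546361, both on the minus strand, and the motif starts 183 and 141 bases before the respective RefSeq start. The Foxa1 stretch lies inside the Foxa1 gene as GENCODE places it, downstream of the GENCODE start. Of the other motifs searched, all on both strands, the NKX2-1 motif CTCAAG, in 13.33% of promoters, was found for Foxa2 alone among the 7 factors with a promoter entry. That Foxa2 window also lies inside its gene as GENCODE places it. The ETS motif CCGGAAG (6.91% of promoters) was found for none of them. The GATA motif AGATAAG (2.74%) and the C/EBP motif TTGCGCAA (0.16%) were also found for none. These are matches of letters in short windows, and nothing was measured there.

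Whether genotype acted differently in the 2 alveolar classes was tested with an interaction term and the library as a block. For Etv5 the effect in AT1-like cells exceeded that in AT2-like cells by 1.65 on the log2 scale (SE 0.26, adjusted p = 4.68e-08). For Foxa1 the difference was 1.48 (SE 0.28, adjusted p = 8.98e-06) and for Cebpa 1.66 (SE 0.43, adjusted p = 0.00375). The other 6 factors tested did not pass, and 6.09% of all genes did. Without any single library the Etv5 and Foxa1 terms still passed, while the Cebpa term was 1.54 (adjusted p = 0.0612) without Het1 and 1.22 (adjusted p = 0.135) without KO1.

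In the airway classes no factor was called. In secretory-like cells, 0 of 9 factors tested passed with edgeR, 0 had an unadjusted p under 0.05, and DESeq2 passed 0. There 0.285% of all genes passed, and 5.41% had an unadjusted p under 0.05. Foxa1 was at 72.9 and 73.1 CPM against 57.6, 99.1 and 59.6 CPM, Foxa2 at 62.3 and 57.2 CPM against 52.2, 43.8 and 65.9 CPM, and Klf5 at 306 and 294 CPM against 289.6, 288 and 202 CPM. In ciliated-like cells, 0 of 10 passed with edgeR, and 3 (Sox9, Cebpa and Etv5) had an unadjusted p under 0.05. Of all genes 0.192% passed there and 8.07% had an unadjusted p under 0.05. DESeq2 also passed 0, but it gave no adjusted p for Cebpa and Etv5 in this class. Cebpa was there at 22.8 and 19.96 CPM against 18.2, 11.6 and 14 CPM (log2 fold change -0.62, adjusted p = 0.524). In simulated sums of these classes, 44% and 54% of genes changed by 1 on the log2 scale were recovered, beside 7 and 14 false calls. Smaller changes would thus often be missed at this depth.

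Outside the epithelium, Sox9 fell in endothelial cells. It was at 32.7 and 36.4 CPM in the Het libraries and at 10.0, 9.56 and 17.0 CPM in the KO libraries (log2 fold change -1.47, SE 0.23, adjusted p = 0.00473), the only call among 6 factors tested, where 7.17% of all genes passed and 4.8% passed with a lower level in the KO libraries. The groups did not overlap, as for 39% of genes. A cluster with Car4 among its leading genes held 83 and 51 endothelial cells in the Het libraries and 4, 3 and 6 in the KO libraries, and with it 59 and 59 Sox9 UMIs against 1, 0 and 1. Without that cluster the endothelial values were 21.7 and 22.5 CPM against 9.82, 9.41 and 16.9 CPM (unscaled CPM), and the test was not passed (log2 fold change -0.82, adjusted p = 0.108). The call was also lost without Het2 (adjusted p = 0.0607). The genotype effect on Sox9 in epithelial cells exceeded that in endothelial cells by 2.01 on the log2 scale (SE 0.19, adjusted p = 4.95e-05, edgeR interaction term), where 5.92% of all genes passed, and this held without any single library. Against mesenchymal cells 0 of 10 factors passed and 4 had an unadjusted p under 0.05, where 3.32% of all genes passed and 16.9% had an unadjusted p under 0.05 (edgeR, no other tool run). The Sox9 term passed there without Het1 (0.98, adjusted p = 0.0319) or KO1 (0.92, adjusted p = 0.0186). Against immune cells 0 of 10 passed and 6 had an unadjusted p under 0.05, where 4.82% of all genes passed and 18.6% had an unadjusted p under 0.05. Cebpa came nearest (-0.62 on the log2 scale, adjusted p = 0.0507), and without KO3 it passed (-0.81, adjusted p = 0.00972), as did Etv5 (-0.88, adjusted p = 0.0140).

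In immune cells Etv5 was higher in the KO libraries, at 8.40 and 8.82 CPM against 21.5, 15.2 and 15.8 CPM (log2 fold change 1.00, SE 0.15, adjusted p = 0.00487, edgeR), as the single call of that test among 9 factors, where 8.6% of all genes passed and 3.47% passed with a higher level in the KO libraries. The groups did not overlap, as for 41.6% of genes. Clusters led by the complement genes C1qa, C1qb and C1qc, known from tissue macrophages, held Etv5 at 57.2 and 80.0 CPM against 67.8, 57.3 and 69.4 CPM, with overlap. They made up 7.07% and 7.15% of immune cells in the Het libraries and 23.6%, 15.9% and 16.6% in the KO libraries. Without them Etv5 was at 4.86 and 4.33 CPM against 11.1, 8.40 and 7.75 CPM, and still passed (log2 fold change 0.91, adjusted p = 0.0171). The Etv5 values of red-cell barcodes, given above with the AT1-like cells, were of similar size and also higher in every KO library. The part of free RNA in the immune value was not tested. Nkx2-1, which immune cells should lack, was at 4.41 and 2.98 CPM against 9.10, 5.30 and 6.72 CPM (log2 fold change 0.91, adjusted p = 0.0668). It passed with DESeq2 (0.92, adjusted p = 0.0189), which called both Etv5 and Nkx2-1 here, with library size alone (adjusted p = 0.0481), without the low-count filter (0.0226), without KO2 (0.0394) and without the C1q-led clusters (0.0436). The Etv5 call was lost without Het1 and with sex as a term (log2 fold change 0.97 and 0.87), and each of these fits leaves 1 library in a group.

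Mesenchymal cells gave 0 calls among 8 factors tested with edgeR and 0 with DESeq2, and Nkx2-1 and Etv5 had an unadjusted p under 0.05, where 1.31% of all genes passed and 14.2% had an unadjusted p under 0.05. Sox9 was at 45.3 and 65.6 CPM against 63.4, 33.8 and 47.9 CPM, and Gata6 at 127 and 126 CPM against 130.4, 95.5 and 121 CPM, both with overlap. Over whole libraries 0 of 10 passed with edgeR, 1 (Etv5, 39.8 and 34.3 CPM against 41.2, 49.8 and 51.1 CPM, adjusted p = 0.133) had an unadjusted p under 0.05, and DESeq2 passed 0. There 4.27% of all genes passed and 25.4% had an unadjusted p under 0.05. Without KO1, Etv5 passed there (log2 fold change 0.45, adjusted p = 0.0388).

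Genes around the 10 factors were counted from lists of other epithelial factors, distal tip and FGF signalling genes, and surfactant, AT1 and airway genes. Over all epithelial cells, 2 of 41 other factors rose and 4 fell, with a median log2 fold change of -0.10 against -0.0020 for all genes. Of all genes 3.87% rose and 5.71% fell there, and 9.59% passed in either direction. Foxp2, a forkhead repressor of distal lung, rose from 113 and 132 CPM to 278, 332 and 336 CPM (log2 fold change 1.37, adjusted p = 0.000439). Foxp2 is among the 10 leading genes of the Fbn2-led cluster, which gave 13.3% and 18.4% of the epithelial UMIs in the Het libraries and 35.6%, 25.3% and 32.1% in the KO libraries. Within Fbn2-led cells it also rose, from 258 and 217 CPM to 399, 484 and 444 CPM (log2 fold change 0.90, adjusted p = 0.000348), as the only 1 of 33 other factors to do so, and within AT2-like cells by 1.02. Sox4 rose by 0.42 on the log2 scale (129 and 120.0 CPM against 156, 172 and 171 CPM). Foxj1, the master factor of motile cilia, fell from 249 and 236 CPM to 127, 165 and 125 CPM (log2 fold change -0.80), and Ehf, an ETS factor, fell from 29.8 and 36.2 CPM to 13.9, 19.3 and 12.7 CPM (log2 fold change -1.09). Ciliated-like cells gave 32.4% and 25.7% of the epithelial UMIs in the Het libraries and 16.1%, 21.0% and 12.48% in the KO libraries, and within them 0 of 36 other factors passed (edgeR), with Foxj1 at 599 and 683 CPM against 502, 565 and 653 CPM (log2 fold change -0.16, adjusted p = 0.836). Ehf was at 40.8 and 68.0 CPM against 33.6, 41.5 and 29.4 CPM there (adjusted p = 0.513). The part of class shares in these values over all epithelial cells was not tested.

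Of 17 distal tip and FGF genes tested over all epithelial cells, 2 rose and 0 fell, with a median of 0.24. Hmga2, a chromatin protein of immature tissue, rose from 15.4 and 15.1 CPM to 29.9, 25.5 and 33.6 CPM (log2 fold change 0.96, adjusted p = 0.00432). The receptor gene Fgfr4 also passed (log2 fold change 2.28, adjusted p = 0.0445), but at 0.0954 to 1.27 CPM. Of 25 surfactant and AT2 genes, 0 rose and 8 fell, with a median of -0.50, among them Chil1 (607 and 573 CPM against 68.8, 116 and 163 CPM) and the calcium-binding protein gene S100g (438 and 358 CPM against 109.6, 59.1 and 132 CPM). Of 16 airway genes 0 rose and 10 fell, with a median of -1.07. Scgb1a1, the secretoglobin of club cells, fell from 8288 and 8263 CPM to 2572, 2025 and 1609.9 CPM (log2 fold change -2.00), and the mucin gene Muc5b fell by 2.18 on the log2 scale. Of 20 AT1 genes 0 rose and 3 fell, including Rtkn2 (log2 fold change -1.10) and the sodium channel subunit gene Scnn1g (log2 fold change -0.88).

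Within AT2-like cells 22 of 25 surfactant and AT2 genes fell and 0 rose, with a median of -0.84 against 0.018 for all genes, while 9 of 19 AT1 genes rose. Of all genes tested there 4.73% fell and 3.5% rose. Within AT1-like cells the same lists ran oppositely: 6 of 24 surfactant and AT2 genes rose and 1 fell, and 12 of 20 AT1 genes fell and 0 rose, where 1.88% of all genes rose and 2.16% fell. In Fbn2-led cells, 10 of 25 surfactant and AT2 genes and 9 of 20 AT1 genes fell, where 2.69% of all genes fell. Of the 10 factors themselves, the median log2 fold change was 0.03 over all epithelial cells, -0.14 in AT2-like, -0.03 in AT1-like and -0.22 in Fbn2-led cells, over those tested. The lists share genes with the markers used to name the classes, and none of the 10 factors was a marker.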

How the data were processed

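The authors' deposited matrices hold raw UMI counts per gene and barcode for 5 libraries, made with Cell Ranger 4.0.0 on mm10, per the submitters' processing notes. Total counts were 56608582 to 93708304 UMIs per library. Barcodes entered the analysis from 500 detected genes upward, unless over 15% of their UMIs were mitochondrial. Red-cell barcodes had over 50% haemoglobin UMIs and under 500 detected genes. Doublets (78 to 186 per library) were called against simulated ones at a rate of 0.8% per 1000 cells and removed. Cells were clustered by Leiden (leidenalg 0.10.2, resolution 1) on 2000 variable genes, 30 components and 15 neighbours, and the epithelial cells were clustered again without the 10 factors. Naming rules, which required at least 3 markers of a class, were settled after the clusters were seen.

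UMIs were summed per library and class (classes with at least 20 cells in each library) and tested with edgeR 4.0.16 (R 4.3.3; TMM, filterByExpr, robust quasi-likelihood), KO over Het, with Benjamini-Hochberg adjustment over all genes and a threshold of 0.05. Library effects within interactions were blocked. The tests were also tried on counts simulated from the means, library sizes and dispersions of these data. With 200 genes changed, 7 (secretory-like) to 24 (mesenchymal) unchanged genes were called as well. In AT2-like cells 64.5% of the 200 were recovered beside 13 false calls. In every set the false calls exceeded a share of 0.05 of all calls, so the threshold was somewhat lenient in this simulation. Between 9 and 10 factors passed the low-count filter in the epithelial sets; Sox2 (AT2-like, AT1-like and Fbn2-led) and Etv5 (secretory-like) did not. DESeq2 1.42.0 was an alternative. The labels give no litter or batch. The p-values set the genotype difference against the spread within 2 Het and 3 KO embryos, with each gene's dispersion drawn towards that of other genes.

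All 10 factors were named with their values, with the 2 most correlated genes of each, and of each of the 5 lists up to 2 genes per direction with the largest change among those past the threshold over all epithelial cells without overlap of groups. Other genes are cluster leaders or markers. The factors and the lists were chosen with earlier results of these data known. Of 32285 gene IDs, 32158 matched GENCODE M21. A RefSeq promoter was matched for 7 of the 10 factors; Gata6, Klf5 and Sox9 had none in the table used.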

Additional observations from a re-analysis of the deposited data

Results flagged for a closer look

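The genotype effect differed between cell classes for 4 combinations, each by an interaction term of the edgeR fit. Of all genes tested, 5.92% passed the term for epithelial minus endothelial cells and 6.09% that for AT1-like minus AT2-like cells. For Sox9 the effect was 2.01 higher on the log2 scale in epithelial than in endothelial cells (adjusted p = 4.95e-05). The Sox9 call within epithelial cells was lost without cycling cells (edgeR, adjusted p = 0.258), and that within endothelial cells without the Car4-led cluster (0.108). Between AT1-like and AT2-like cells the genotype effect was 1.65 higher for Etv5 (adjusted p = 4.68e-08), 1.48 higher for Foxa1 (adjusted p = 8.98e-06) and 1.66 higher for Cebpa (adjusted p = 0.00375), each on the log2 scale. The Cebpa term did not pass without Het1 or without KO1.

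Nkx2-1, which red blood cells do not make, was found in the red-cell barcodes of every library, outside the compared cells. It was at 10.3 CPM in Het1, 6.43 CPM in Het2, 35.9 CPM in KO1, 12.1 CPM in KO2 and 17.4 CPM in KO3, with haemoglobin UMIs counted in the total.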

How the results depend on the processing

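All numbers here count factors past the threshold unless stated. The setting with sex as a term is left out of these counts, because it leaves KO3 alone against the Het libraries. Over all epithelial cells (1) the count was 4 without the low-count filter (Sox2, Cebpa and Etv5 added), 2 with all epithelial barcodes, and 0 without mixed or cycling cells. In AT2-like cells (2) it was 0 with library size alone, DESeq2, doublets kept, resolution 2 or without mixed cells, and 4 with Fbn2-led cells added. In that joint set Etv5 turned to a log2 fold change of -0.41 (adjusted p = 0.0451). In AT1-like cells (2) it was 1 at resolution 0.5 or without mixed cells (Foxa1 lost in each). In Fbn2-led cells (1) it was 0 with doublets kept, resolution 0.5 or 2, and Cebpa turned to 0.90 at resolution 2. In immune cells (1) it was 2 (Nkx2-1 added) with library size alone, DESeq2, no filter or without the C1q clusters. In endothelial cells (1) it was 0 without the Car4 cluster. Without the filter it was 1 in ciliated-like (Sox9) and in mesenchymal cells (Nkx2-1), where it was 0 before. The class with the largest share of cells holding a UMI was the same at 1500 as at 3000 UMIs for 10 factors, and without thinning for 5. Joint detection of Sox2 and Sox9 averaged 0.592% and became 0.167% at 1500 UMIs and 11.6% without thinning.

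With 1 library left out, counts ran from 0 to 1 over all epithelial, Fbn2-led and endothelial cells and whole libraries, 0 to 2 in AT2-like and immune cells, 1 to 2 in AT1-like cells, and stayed 0 in secretory-like, ciliated-like and mesenchymal cells. For the interactions they ran from 2 to 3 (AT1-like minus AT2-like), 1 to 1 (epithelial minus endothelial), 0 to 1 (minus mesenchymal) and 0 to 2 (minus immune). Replicate numbers share only a number: correlations of same-numbered libraries were 0.157 and -0.0119 over epithelial cells. With the replicate block the counts were 2 over all epithelial cells, 1 in AT2-like, 2 in Fbn2-led, 1 in ciliated-like, 1 in mesenchymal and 2 in immune cells. DESeq2 gave no adjusted p for Etv5, Foxa1, Cebpa and Sox9 in AT1-like cells, and none for Cebpa and Etv5 in ciliated-like cells. Some alternatives left under 20 cells of a class in a library and were not run there.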
